A study of Mus musculus with 8 samples.

Results

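The RNA of 10 genes of the megakaryocyte and platelet lineage was described in individual long-term hematopoietic stem cells (LT-HSC) of aged mice. The genes were Vwf, Pf4, Itga2b, Itgb3, Gp1bb, Gp9, Treml1, Ppbp, Plek and Cd9, chosen by name from the 18174 gene symbols of the deposited tables. All 10 had a row in at least 1 table and 7 had a row in all 8. Treml1 had no row in Dlk1- replicate 2, Gp1bb had no row in Dlk1+ replicate 2, and Ppbp had a row only in Dlk1- replicate 3. LT-HSC from the bone marrow of untreated wildtype male C57BL/6J mice aged 18 months had been sorted as Lin-CD150+CD48-CD34-Kit+Sca1+ and as either Dlk1+ or Dlk1-. Dlk1 is a surface protein related to the Notch ligands. Each sort had 4 libraries, and none of the 10 genes encodes a protein named in the sort. Which proteins the Lin- gate covers is not given here. The labels name no mouse for a library, so the p-values measure the spread between libraries, which may be technical.

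The method was mCEL-Seq2, a plate-based assay that tags the 3′ end of each polyadenylated RNA with the barcode of its well and with a unique molecular identifier (UMI), so that every captured molecule is counted once. A barcode was kept when it lay in the range its sort used (1 to 96 for Dlk1+, from 97 on for Dlk1-), was not among 10 barcodes that were left out, and carried at least 1000 transcripts. This left 220 Dlk1+ and 321 Dlk1- cells, 541 in all. Between 26 and 86 cells were kept in a Dlk1+ library and between 36 and 96 in a Dlk1- library. Their UMIs summed to between 38488 and 450302 in the Dlk1+ and between 219360 and 496831 in the Dlk1- libraries. Dlk1+ replicate 3 stood apart: its 26 cells had a median of 1295.5 UMIs, against medians of 3403 to 5521 in the other libraries. Dlk1 itself was at 358 to 640 CPM (transcripts of the gene per 1000000 transcripts of the library) in the Dlk1+ libraries and at 3.86 to 50.3 CPM in the Dlk1- libraries. The 8 stem cell markers Procr, Fgd5, Hlf, Mecom, Slamf1, Hoxb5, Kit and Ly6a were all seen and summed to 1229 to 1857 CPM in the Dlk1+ and 1328 to 1638 CPM in the Dlk1- libraries. The libraries of a sort reuse the same well barcodes, so a barcode that recurs does not mark a shared cell.

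Megakaryocytes are the large marrow cells that shed platelets. Platelets bind damaged vessel walls through the GPIb-IX-V receptor, which holds von Willebrand factor (Vwf), and bind each other through the integrin αIIbβ3, encoded by Itga2b and Itgb3. Their granules release von Willebrand factor and the chemokines Pf4 and Ppbp. Some LT-HSC carry RNA of this programme, Vwf above all, and such cells are known to be biased towards platelet output and to become more frequent with age.

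The promoters of 4 of the genes are shown because Pf4, Itga2b and Gp1bb were found together in single cells more often than their separate shares give, while Ppbp, which lies beside Pf4, was almost unseen. Each runs from 250 bases before to 50 bases after the annotated start, 5′ to 3′ on the gene's strand, from RefSeq on GRCm38.p6. Capitals mark a GATA-type word (AGATAA or the variant that reads AGATAG, and likewise the word TGATAA or its variant, which reads TGATAG, all on either strand), the ETS-type word GGAAGT on either strand, or TATAAA on the gene's strand. GATA and ETS factors are the transcription factor families best known for driving megakaryocyte genes.
Pf4: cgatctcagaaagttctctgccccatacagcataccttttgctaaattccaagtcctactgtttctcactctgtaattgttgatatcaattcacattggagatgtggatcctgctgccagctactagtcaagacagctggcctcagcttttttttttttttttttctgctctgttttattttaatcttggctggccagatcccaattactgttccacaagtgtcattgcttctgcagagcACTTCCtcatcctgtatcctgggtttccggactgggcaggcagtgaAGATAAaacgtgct
Ppbp: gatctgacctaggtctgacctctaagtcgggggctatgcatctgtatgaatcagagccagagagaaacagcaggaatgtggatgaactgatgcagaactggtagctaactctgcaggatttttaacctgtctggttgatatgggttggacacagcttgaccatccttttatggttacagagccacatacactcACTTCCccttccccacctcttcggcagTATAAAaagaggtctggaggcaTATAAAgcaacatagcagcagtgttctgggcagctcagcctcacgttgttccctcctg
Itga2b: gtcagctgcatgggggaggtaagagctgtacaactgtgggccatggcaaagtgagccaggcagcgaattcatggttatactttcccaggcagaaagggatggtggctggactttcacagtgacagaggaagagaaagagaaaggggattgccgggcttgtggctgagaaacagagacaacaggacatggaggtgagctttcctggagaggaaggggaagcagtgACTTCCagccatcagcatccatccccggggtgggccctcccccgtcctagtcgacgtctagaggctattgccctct
Gp1bb: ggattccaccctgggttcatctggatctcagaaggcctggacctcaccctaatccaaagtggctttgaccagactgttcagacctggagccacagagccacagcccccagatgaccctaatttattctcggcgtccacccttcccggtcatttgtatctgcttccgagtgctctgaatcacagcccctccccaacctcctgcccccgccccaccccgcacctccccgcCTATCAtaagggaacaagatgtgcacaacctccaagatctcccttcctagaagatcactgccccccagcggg
The Pf4 window lies at chr5:90772185-90772484 (plus strand), that of Ppbp at chr5:90768268-90768567 (plus strand), that of Itga2b at chr11:102469834-102470133 (minus strand) and that of Gp1bb at chr16:18622354-18622653 (minus strand). The table held promoters of 8 of the 10 genes, without Vwf and Itgb3. Of these 8, 2 held a GATA-type word (Pf4 at +37 and Gp1bb at -22 from the start), against 29.6% of 32544 promoters of the same length. The ETS-type word was in 4 of the 8 (Pf4 at -10, Itga2b at -26, Ppbp at -57 and Gp9 at -240), against 23.7% of all promoters, and TATAAA was in the Ppbp promoter alone, against 8.28%. These matches are descriptions of letters and not of binding. Treml1 was also found with Pf4, Itga2b and Gp1bb more often than the shares give. Its promoter held none of the marked words and is not shown.

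The genes of the 2 chemokines are neighbours: Ppbp lies at chr5:90768518-90770063 and Pf4 at chr5:90772435-90773383, with 2371 bases between them. Gp1bb (chr16:18620319-18622403) shares 593 bases with Septin5 on the same strand, so its counts are uncertain. The Sept5 row, the older name of that neighbour, held 1 transcript in 1 library.

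Cd9, Vwf and Itgb3 were seen in the most cells. Cd9, a tetraspanin of the platelet membrane, had a UMI in 244 of the 541 cells (45.1%). Vwf, the multimeric ligand that tethers platelets, had one in 239 cells (44.2%), and Itgb3, the β3 integrin chain, in 198 cells (36.6%). Plek, which encodes pleckstrin, a main substrate of protein kinase C in platelets, was seen in 21.3% of cells. Itga2b, the αIIb chain also known as CD41, was seen in 19.6% and Gp9, the GPIX subunit of the GPIb-IX-V receptor, in 13.7%. The rest were infrequent: Pf4 was seen in 41 cells (7.58%), Gp1bb, the GPIbβ subunit, in 34 (6.28%) and Treml1, a receptor of the α-granule membrane, in 25 (4.62%). Ppbp, the precursor of the platelet chemokine NAP-2, gave a single UMI in 1 cell (0.185%). Vwf and Itgb3 were each seen in at least 10% of the cells of every library, and no other gene of the 10 was. A count made at the 3′ end does not grow with transcript length, but capture may differ between genes, so the order of the shares is an order of detection.

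Most detections rested on 1 UMI. The share of positive cells with exactly 1 UMI was 50.2% for Vwf, 62.3% for Itga2b, 69.7% for Cd9, 73.2% for Itgb3 and 79.1% for Plek. The highest count in a cell was 7 for Vwf, 5 for Itgb3, 8 for Itga2b, 11 for Cd9 and 22 for Pf4. Barcodes of the range that a library did not use give the level of stray RNA. There, 728 barcodes held 23663 UMIs, or 32.5 per barcode, of which 10 belonged to the 10 genes. That is 1.37 such UMIs per 100 unused barcodes, against 1691 UMIs on the 541 kept cells. Of the 10 stray UMIs, 3 were of Pf4 and none was of Vwf, Gp1bb, Treml1 or Ppbp. All kept cells came from the stem cell gate, so no cell type that lacks these genes was at hand as a further background.

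Among the ligands, Vwf was at 126.4, 204.9, 460.8 and 194.9 CPM in Dlk1+ replicates 1 to 4 and at 156.6, 169.3, 151.5 and 180.3 CPM in Dlk1- replicates 1 to 4. The Dlk1+ range enclosed the Dlk1- range, and the highest value was that of the shallow Dlk1+ replicate 3, where it rested on 18 UMIs. By library, the share of cells with a Vwf UMI ran from 30.8% (95% Wilson interval 16.50% to 49.99%) in Dlk1+ replicate 3 to 58.3% (42.2% to 72.9%) in Dlk1- replicate 2. Such intervals cover counting error only. Vwf-positive cells had the higher median depth in all 8 libraries, for example 5632 against 4472 UMIs in Dlk1+ replicate 4. Vwf is also made by endothelium. The summed endothelial markers were at 260.4 to 538 CPM in the Dlk1+ and 247 to 361 CPM in the Dlk1- libraries. Most of this was Tie1 (583 of 793 UMIs), Cdh5 had no row, and Plvap and Stab2 had 3 UMIs and 1 UMI. Their part in the Vwf level was not tested.

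Pf4 was at 17.7, 19.5, 102.4 and 10.9 CPM in Dlk1+ replicates 1 to 4 and at 110.3, 13.02, 37.9 and 14.7 CPM in Dlk1- replicates 1 to 4. One library in each sort stood above the rest, and the groups overlapped. In Dlk1+ replicate 3 the value rested on 4 UMIs. In Dlk1- replicates 1 and 3 it rested largely on 4 cells described below, without which these libraries were at 22.9 and 15.02 CPM. Ppbp was at 2.10 CPM in Dlk1- replicate 3 and at 0 in the other 7 libraries, whose depth allows up to 5.80 to 76.8 CPM.

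Of the integrin chains, Itga2b was at 25.3, 9.76, 128.02 and 59.1 CPM in Dlk1+ replicates 1 to 4 and at 83.1, 26.04, 77.8 and 119.5 CPM in Dlk1- replicates 1 to 4. The lowest libraries were replicates 1 and 2 of the Dlk1+ and replicate 2 of the Dlk1- sort, and the groups overlapped. The highest value, that of Dlk1+ replicate 3, rested on 5 UMIs in 2 cells, 4 of them in 1 cell. Itgb3 was at 83.4, 78.1, 153.6 and 118.2 CPM in Dlk1+ replicates 1 to 4 and at 104.4, 73.8, 54.7 and 148.8 CPM in Dlk1- replicates 1 to 4. Here the lowest library was Dlk1- replicate 3, and the ranges again overlapped. The highest Itgb3 value, in Dlk1+ replicate 3, rested on 6 UMIs. The integrin's α chain was thus detected in fewer cells than its β chain in each of the 2 sorts, with Itga2b in 25 and Itgb3 in 82 Dlk1+ cells.

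Of the GPIb-IX-V subunits, Gp9 was at 27.8, 39.03, 25.6 and 28.5 CPM in Dlk1+ replicates 1 to 4 and at 42.5, 43.4, 37.9 and 41.9 CPM in Dlk1- replicates 1 to 4. Dlk1+ replicate 2 was the only Dlk1+ library to reach the Dlk1- range. Gp1bb was at 10.1, 0, 51.2 and 19.7 CPM in Dlk1+ replicates 1 to 4 and at 30.9, 8.68, 8.41 and 8.38 CPM in Dlk1- replicates 1 to 4. The values of both sorts overlapped, and the 0 in Dlk1+ replicate 2 allows up to 29.3 CPM, or 11.1% of its 27 cells. In Dlk1+ replicate 3 the Gp1bb value rested on 2 UMIs and the Gp9 value on 1.

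Among the membrane and signalling proteins, Cd9 was at 108.7, 48.8, 0 and 133.6 CPM in Dlk1+ replicates 1 to 4 and at 131.4, 125.9, 145.1 and 178.2 CPM in Dlk1- replicates 1 to 4. In Dlk1+ replicate 3 none of 26 cells had a Cd9 UMI, which allows a share of up to 11.5% and a level of up to 76.8 CPM. Dlk1+ replicate 4 alone lay inside the Dlk1- range. Plek was at 70.8, 78.1, 25.6 and 61.3 CPM in Dlk1+ replicates 1 to 4 and at 56.05, 56.4, 50.5 and 35.6 CPM in Dlk1- replicates 1 to 4. All Dlk1+ libraries but replicate 3 were above all Dlk1- libraries for Plek, and replicate 3 rested on 1 Plek UMI. Treml1 was at 9.76 to 25.6 CPM in the Dlk1+ and 0 to 15.5 CPM in the Dlk1- libraries, overlapping ranges. The highest Treml1 value, in Dlk1+ replicate 3, rested on 1 UMI.

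**Figure D1:**
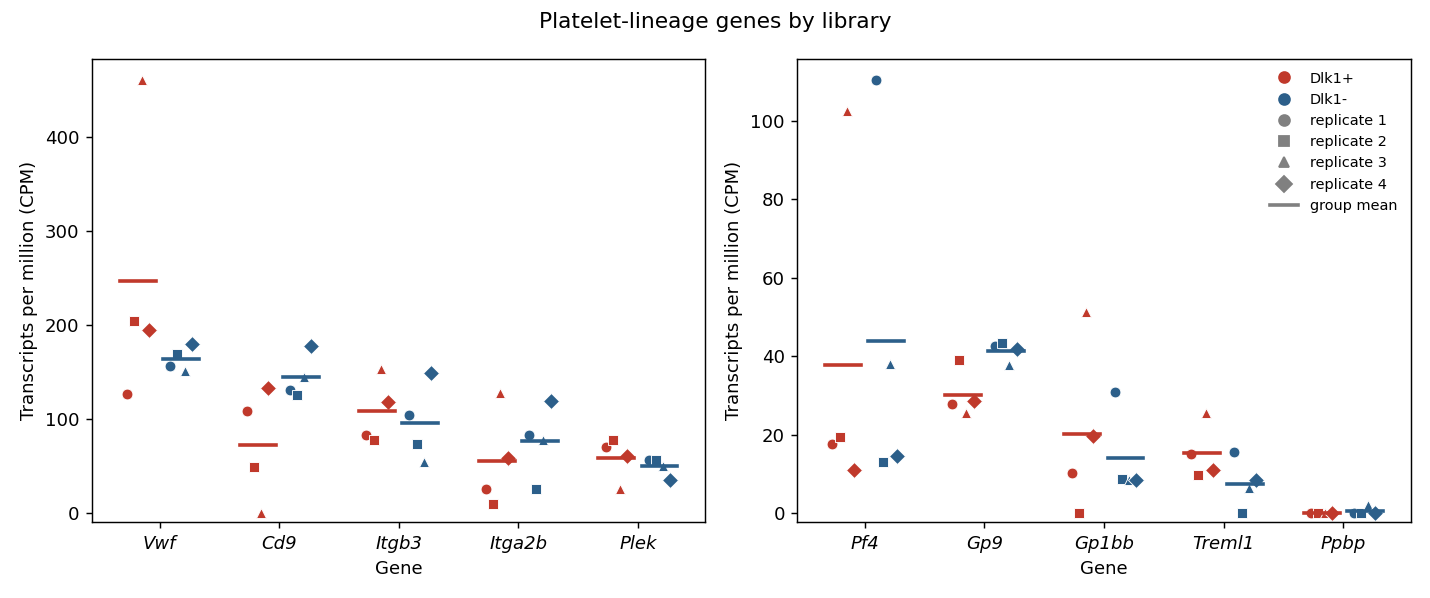
Level of each of the 10 genes in CPM (vertical axis, linear, different in the 2 panels) in every library; each point is a library, its shape the replicate, its colour the sort, and lines are group means. Dlk1+ replicate 3 (triangles) is the highest Dlk1+ library for Vwf, Itgb3, Itga2b, Pf4, Gp1bb and Treml1 and the lowest for Cd9, Plek and Gp9.

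The comparison between sorts asked whether LT-HSC with surface Dlk1 differ in these genes from LT-HSC without it. None of the 6 genes with enough counts to be tested passed (Vwf, Itga2b, Itgb3, Gp9, Plek and Cd9). Sums per library were fitted with limma-voom, with Benjamini-Hochberg adjustment over all 5666 genes tested and a false discovery rate of 0.05. Over all genes this called 2 (0.0353%), Dlk1 and Timp3, both higher in the Dlk1+ sort. At an unadjusted p under 0.05 there were 0 of the 6, against 368 of all genes (6.49%). The median log2 fold change (Dlk1+ minus Dlk1-) was -0.12 over the 6 genes and -0.04 over all genes, with 3 of the 6 and 54.8% of all genes below 0. Pf4, Gp1bb, Treml1 and Ppbp did not pass the filter on low counts. The plate, read from the table names, held replicates 1 and 2 (plate 5) or 3 and 4 (plate 6), and values within plates are given below.

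Itga2b had the lowest estimate, a log2 fold change of -0.83 (SE 0.44, 95% interval -1.76 to 0.10, limma adjusted p = 0.767). Cd9 followed at -0.73 (SE 0.40, interval -1.56 to 0.11, limma adjusted p = 0.767). Both intervals run from a decrease of more than 1 log2 unit to a small increase, so these libraries do not settle a difference. Mean Itga2b was 55.5 ± 52.5 CPM (SD, n = 4) in the Dlk1+ and 76.6 ± 38.5 CPM (SD, n = 4) in the Dlk1- libraries. Mean Cd9 was 72.8 ± 60.2 CPM (SD, n = 4) and 145.2 ± 23.5 CPM (SD, n = 4). Gp9 was at -0.41 (SE 0.31, interval -1.06 to 0.24, limma adjusted p = 0.838). The other 3 lay above 0. Plek was at 0.43 (SE 0.33, interval -0.25 to 1.11, limma adjusted p = 0.838) and Vwf at 0.25 (SE 0.27, interval -0.31 to 0.81, limma adjusted p = 0.882). Itgb3 was at 0.17 (SE 0.30, interval -0.46 to 0.80, limma adjusted p = 0.935). The sign was not stable for the last 2 genes: Vwf was at -0.10 when each cell was brought to 1000 UMIs before summing, and Itgb3 at -0.07 without Dlk1- replicate 3. Without the shallow Dlk1+ replicate 3, Vwf was at 0.06, Itgb3 at 0.12 and Cd9 at -0.41.

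**Figure D2:**
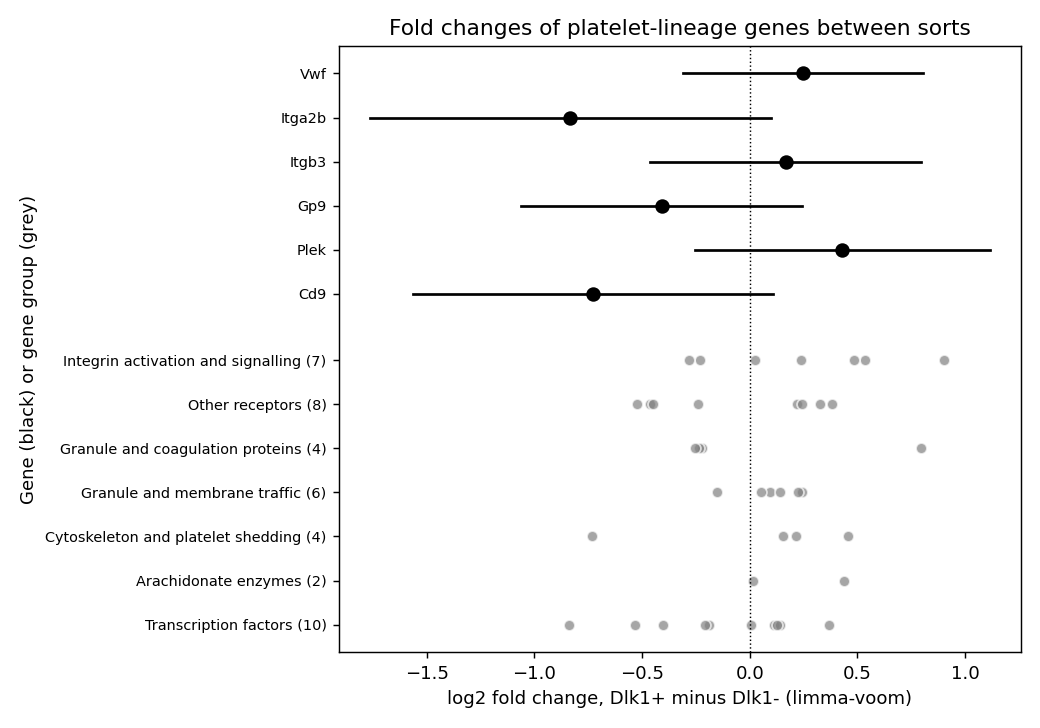
Log2 fold change between sorts (horizontal axis, Dlk1+ minus Dlk1-, limma-voom) of the 6 tested genes (black, with 95% intervals) and of 41 further tested genes of the lineage by group (grey points, number of genes in brackets). All 6 intervals include 0.

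Median depth ran from 1295.5 to 4862 UMIs in the Dlk1+ and from 4595 to 5521 UMIs in the Dlk1- libraries. Shares of cells were therefore compared after each cell was brought to 1000 UMIs by calculation. On this scale Cd9 was seen in 6.64% ± 5.97 (SD, n = 4) of Dlk1+ and 13.4% ± 2.58 (SD, n = 4) of Dlk1- cells (difference -6.74 points, exact permutation p = 0.0857, adjusted 0.740). The difference was -4.34 points within plate 5 and -9.14 points within plate 6. Itga2b was seen in 3.23% ± 2.42 against 6.34% ± 3.03 (SD, n = 4 each, difference -3.11, exact permutation p = 0.143, adjusted 0.743), with -3.19 and -3.03 points within plates 5 and 6. Gp9 was seen in 2.56% ± 0.946 against 3.57% ± 0.393 (SD, n = 4 each, difference -1.01, exact permutation p = 0.114, adjusted 0.740), with -0.497 and -1.52 points within the plates. These 3 genes thus had a negative difference on each plate, while none passed the test. Over all genes tested, 54.6% had a negative difference in share, and the part with one on both plates was not counted. The tests were two-sided over 70 assignments of the libraries, which cannot give a p below 0.0286, and were adjusted over the 5666 genes.

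The other 3 tested genes differed between plates. Plek was seen in 7.03% ± 3.53 of Dlk1+ and 4.88% ± 0.407 of Dlk1- cells (SD, n = 4 each, exact permutation p = 0.314), with differences of 4.64 and -0.336 points within plates 5 and 6. Vwf was seen in 17.7% ± 5.54 and 14.5% ± 1.83 (SD, n = 4 each, exact permutation p = 0.343), with -1.04 and 7.61 points. Itgb3 was seen in 11.6% ± 4.07 and 9.59% ± 3.62 (SD, n = 4 each, exact permutation p = 0.457), with -0.589 and 4.69 points. Their adjusted p were between 0.791 and 0.848. Without the shallow Dlk1+ replicate 3 the difference was 0.769 points for Vwf, 0.242 for Itgb3 and 3.54 for Plek (exact permutation p = 0.0286, unadjusted). Without thinning to equal depth the difference in share turned to -9.56 points for Vwf and -3.14 points for Itgb3. With cells of at least 2000 transcripts only, it turned to 1.32 points for Itga2b, 1.09 for Gp9 and -0.0527 for Itgb3. That setting left few cells in the shallow library, where 4 reached 2000 UMIs.

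For 0 of the 6 genes did all Dlk1+ libraries lie on the same side of all Dlk1- libraries, either in share at 1000 UMIs or in CPM. Over all 5666 genes this held for 3.94% in share (2.24% with Dlk1+ lower) and for 3.14% in CPM (2.03% with Dlk1+ lower). Among the genes below the filter, the Treml1 share did not overlap, at 1.14% to 2.11% in the Dlk1+ and 0% to 0.903% in the Dlk1- libraries. This rested on 13 Dlk1+ and 12 Dlk1- cells with a Treml1 UMI and was not tested, and its CPM overlapped. The 0 is that of Dlk1- replicate 2, whose 36 cells allow a share of up to 8.33%.

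Pairs of the 10 genes were compared cell by cell with the number of cells that their separate shares within each library give. With all UMIs, where deep cells can show more genes, 35 of 36 pairs without Ppbp were above that number. After each cell was brought to 1000 UMIs, 24 of the 36 pairs were above it and the median ratio was 1.21. This is a description of cells from 8 libraries, with no test.

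The 6 pairs among Pf4, Gp1bb, Treml1 and Itga2b had the highest ratios at 1000 UMIs of the 36, and no other pair reached 2. They rest on few cells. Pf4 and Gp1bb were seen together in 9 cells where the shares give 2.97, and the ratio at 1000 UMIs was 4.85. Pf4 and Treml1 shared 6 cells where the shares give 1.86 (ratio 5.02 at 1000 UMIs). Pf4 and Itga2b shared 17 cells where they give 7.91 (ratio 3.53). Of the Pf4 cells, 41.5% had an Itga2b UMI, and of the Itga2b cells 16.04% had a Pf4 UMI. Itga2b shared 16 cells with Gp1bb where the shares give 7.24 (ratio 2.36) and 10 with Treml1 where they give 4.75 (ratio 2.01). Gp1bb and Treml1 shared 4 cells where the shares give 1.72 (ratio 4.46). The numbers of cells behind the ratios at 1000 UMIs are smaller still. They are 0.37 against 0.083 for Gp1bb with Treml1 and 1.11 against 0.229 for Pf4 with Gp1bb. For Pf4 with Treml1 they are 0.639 against 0.127, and for Pf4 with Itga2b 2.42 against 0.686. Shallow cells weigh most there. In Dlk1+ replicate 3, a cell of 1827 UMIs held 1 UMI each of Pf4, Gp1bb and Treml1. Another, of 1768 UMIs, held 1 each of Pf4, Itga2b and Gp1bb. Yet another cell of that library, of 2108 UMIs, held 2 UMIs of Pf4 and 4 of Itga2b. With all UMIs, Pf4 and Itga2b exceeded the number given by the shares in each sort: 3 against 1.35 in Dlk1+ and 14 against 6.56 in Dlk1- cells. They did so in 5 of the 8 libraries. In some of these the shares give less than 1 cell, so that 1 cell is enough to exceed them. Without the 4 Pf4-rich cells described below, the ratios at 1000 UMIs were 3.05 for Pf4 with Itga2b, 4.87 for Pf4 with Gp1bb and 3.83 for Pf4 with Treml1. They were 2.29 for Itga2b with Gp1bb, 4.34 for Gp1bb with Treml1 and 1.78 for Itga2b with Treml1, which thus fell below 2. The shallow cells of Dlk1+ replicate 3 stayed in these numbers. For Pf4 with Itga2b the ratio then stood for 1.44 against 0.472 cells, so single shallow cells can make up much of it.

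The genes whose proteins form a complex were near or somewhat above the number given by the shares. The αIIb and β3 chains, Itga2b and Itgb3, were seen together in 54 cells where the shares give 40.7 (ratio 1.45 at 1000 UMIs). Itgb3 RNA was in 50.9% of the Itga2b cells. The GPIb-IX-V subunits Gp1bb and Gp9 shared 9 cells where the shares give 4.85, but the ratio at 1000 UMIs was 1.09. Itgb3 and Gp9, whose proteins belong to different receptors, shared 39 cells where the shares give 27.5 (ratio 1.56).

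Vwf was seen with the other genes about as often as the shares give. Its ratios at 1000 UMIs with the 8 genes other than Ppbp ran from 0.754 to 1.26. Of the Vwf cells, 44.4% had an Itgb3 UMI (ratio 0.965). Vwf shared 20 cells with Pf4 where they give 17.8 (ratio 0.981) and 49 with Plek where they give 50.9 (ratio 0.754). Its highest ratios were with Gp9 (44 cells where the shares give 33.4, ratio 1.26) and Itga2b (61 cells where they give 48.5, ratio 1.22).

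**Figure D3:**
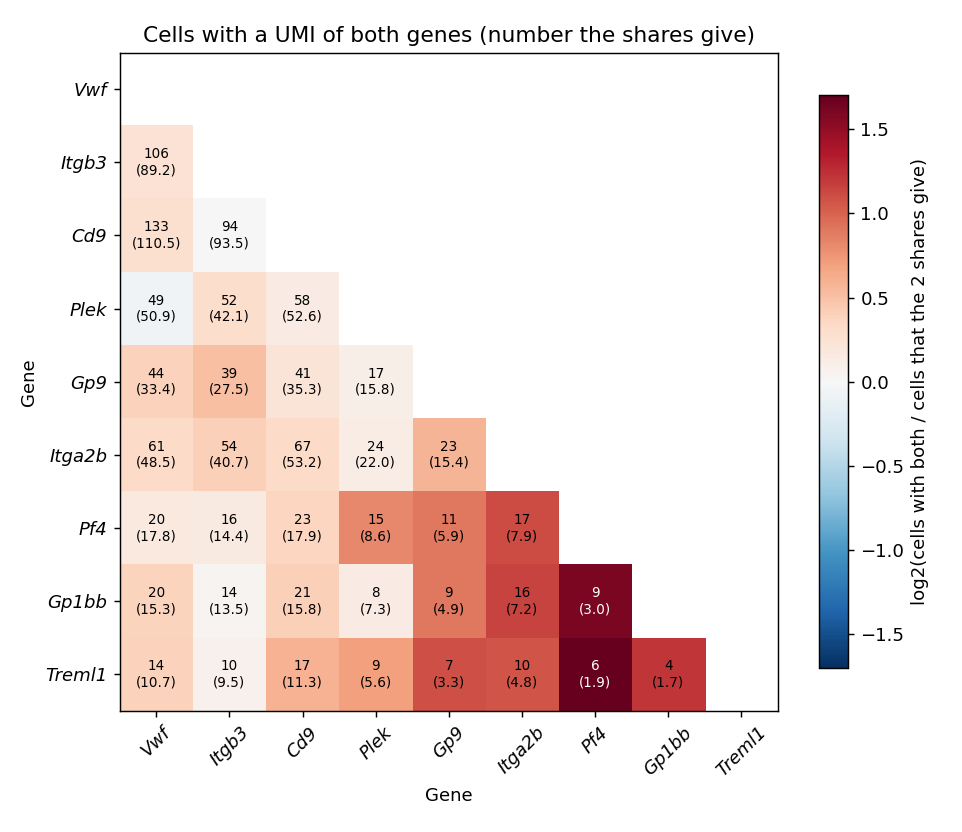
Cells with a UMI of both genes for each pair of 9 genes, all UMIs; each square prints the number of cells and, in brackets, the number that the separate shares within libraries give, and its colour is the log2 ratio of the 2. The darkest red squares are Pf4 with Treml1 (6 cells against 1.86) and Pf4 with Gp1bb (9 against 2.97), and Vwf with Plek (49 cells against 50.9) is the only blue square.

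A cell held a median of 2 of the 10 genes. In 88 cells (16.3%) none was seen, 32.7% of cells held at least 3, and 24 cells held at least 5. Of those 24 cells, 6 were Dlk1+ and 18 Dlk1-, and their median depth was 8285.5 UMIs against 4468 in the rest. By library, cells with no gene of the 10 were most frequent in Dlk1+ replicate 3 (38.5%) and least in Dlk1- replicate 4 (8.51%), which had medians of 1295.5 and 4968.5 UMIs. The part of depth in these counts was not tested.

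**Figure D4:**
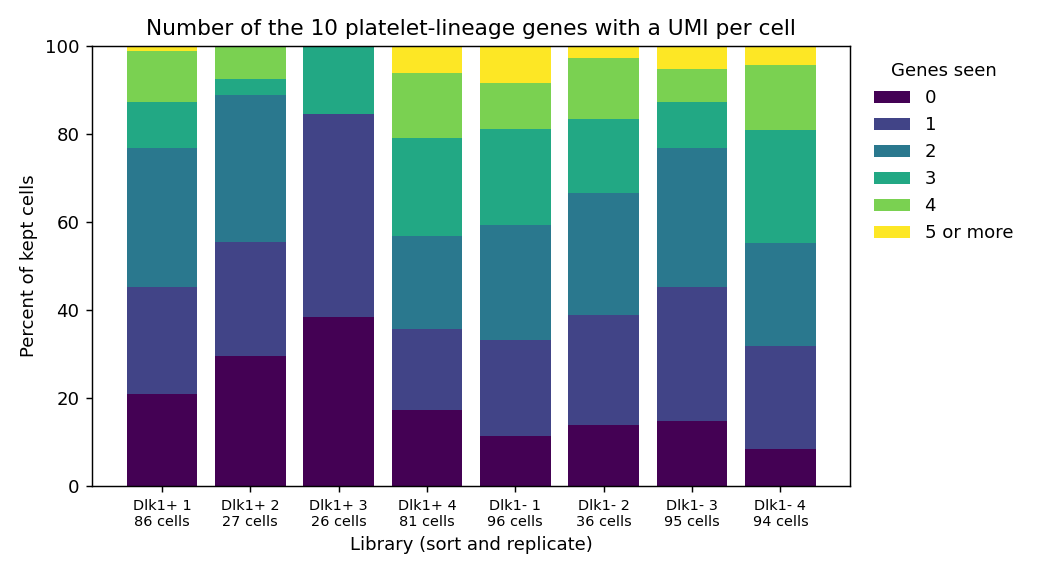
Percent of kept cells (vertical axis) by how many of the 10 genes had a UMI, for each library with its number of cells. Dlk1+ replicate 3, the shallowest library, has the largest share of cells with none (38.5%) and no cell with more than 3.

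A few cells held much of the Pf4. In 4 cells there were 11 to 22 Pf4 UMIs, 55.3% of all Pf4 UMIs, while the next highest cell had 4 and 30 of the other 37 Pf4 cells had 1. These cells were chosen after their counts were seen, so what follows is a description. All 4 were Dlk1- cells, 3 in replicate 1 and 1 in replicate 3. None of the 220 Dlk1+ cells reached 11 Pf4 UMIs, a raw count that is not scaled to depth. Of them, 11 were as deep as the shallowest of the 4 (8499 UMIs), against 22 of 321 Dlk1- cells. Per 10000 UMIs, the Dlk1+ replicate 3 cell of 2108 UMIs held 42.7 of the 10 genes, against 21.5 to 34.8 in the 4 cells. That value rested on 9 UMIs: 2 of Pf4, 4 of Itga2b and 3 of Vwf, with 0 of Cd9. This cell too was chosen after its counts were seen. The number of cells with 11 or more Pf4 UMIs is too small to compare the sorts. The 37 other Pf4 cells were spread over the sorts, 14 in Dlk1+ and 23 in Dlk1- cells.

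The 4 cells also carried other genes of the lineage. They held 6, 6, 9 and 6 of the 10 genes, Pf4 included, and Itga2b was in each at 3, 4, 4 and 5 UMIs. Cd9 was in each as well, at 4, 3, 5 and 4 UMIs, and Vwf was at 1, 0, 1 and 1. Summed over the 9 genes other than Pf4, the 3 cells of replicate 1 had 11.2, 13.5 and 18.1 UMIs per 10000. The other cells of that library had a median of 5.01, a 95th percentile of 11.99 and a maximum of 17.9. The cell of replicate 3 had 14.1, against a median of 4.29, a 95th percentile of 12.8 and a maximum of 17.1. These sums were thus high in their libraries, and 3 of the 4 lay above the 95th percentile. The 8 stem cell markers summed to 6.88, 2.08, 3.78 and 3.53 UMIs per 10000, below the medians of 14.4 and 16.1 of the other cells, but the first and the last of the 4 lay above the 5th percentiles of 4.26 and 2.30. Mki67, a marker of dividing cells, had 13, 7, 10 and 2 UMIs in them, and was seen in 7.64% of all other cells. Per 10000 UMIs this was 11.2, 7.28, 7.56 and 2.35. The other cells of Dlk1- replicates 1 and 3 had 95th percentiles of 2.98 and 2.52 but reached 19.55 and 13.2. The mitotic topoisomerase gene Top2a had 2, 5, 8 and 1 UMIs, where other cells of these libraries reached 14 and 12. Mki67 and Top2a were thus not particular to the 4 cells. The 4 were deep cells, with 11629, 9620, 13227 and 8499 UMIs, at ranks 3, 5 and 2 of 96 and 6 of 95 in their libraries. No doublet caller was run, and the part of depth or of doublets was not tested.

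**Figure D5:**
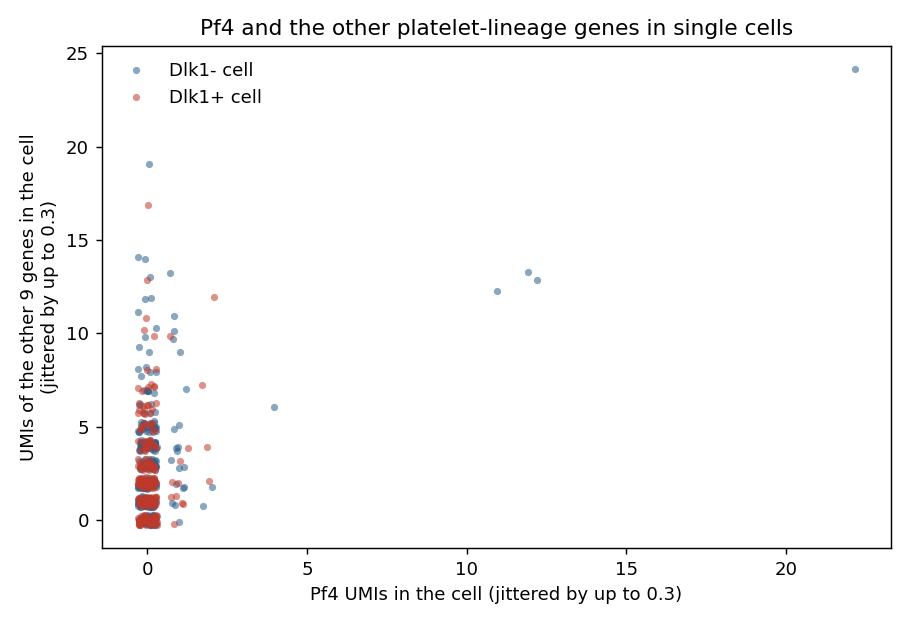
UMIs of Pf4 (horizontal axis) against the summed UMIs of the other 9 genes (vertical axis) in each of the 541 cells, coloured by sort and jittered so that overlapping cells show. The 4 cells at 11 or more Pf4 UMIs are Dlk1- and hold 12 to 24 UMIs of the other genes.

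The deepest cell of all, in Dlk1+ replicate 4, had 36327 UMIs, 1958 of them from the myeloid markers, and held 11 Cd9 and 4 Vwf UMIs. Without it, the log2 fold change of Cd9 was -0.79 (limma adjusted p = 0.731), and without the 4 Pf4-rich cells it was -0.66 (limma adjusted p = 0.798) for Cd9 and -0.71 (limma adjusted p = 0.798) for Itga2b.

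The sorts were also compared over 64 other genes of the lineage, in 8 groups by role. Of these, 59 had a row and 41 were tested. None was called between the sorts, 2 had an unadjusted p under 0.05 (against 6.49% of all genes), and 16 of the 41 lay below 0, with a median log2 fold change of 0.10. Those 2 were Plcg2, a phospholipase downstream of platelet receptors, at 0.90 (SE 0.27, limma adjusted p = 0.576) and Clu, the granule protein clusterin, at 0.79 (SE 0.32, limma adjusted p = 0.701). Plcg2 was at 311.4 ± 124.4 CPM (SD, n = 4) in the Dlk1+ and 147.9 ± 34.9 CPM (SD, n = 4) in the Dlk1- libraries. Its libraries did not overlap between the sorts, 1 gene of the 41, and the same held for 3.14% of all genes.

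Receptors and regulators shared with stem cells were widely seen. Selp, the P-selectin of α-granules, had a UMI in 56.01% of cells. Esam, an adhesion protein of stem cells, endothelium and platelets, was in 40.7%. Among granule proteins, the proteoglycan Srgn was in 94.3% of cells, Angpt1 in 70.98% and Clu in 35.1%. The transcription factors Gata2 and Meis1 were each in 72.1% of cells. Among genes of the cytoskeleton, Tmsb4x was in 86.9%, Myh9 in 55.5% and Flna in 35.5%.

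Of the group of GPIb-IX-V and collagen receptors 0 of 5 could be tested. Gp1ba, the subunit that binds Vwf, had 14 UMIs, Gp5 had 19, Clec1b had 3 and the collagen receptor gene Gp6 had 1. Gata1, the main erythroid and megakaryocyte GATA factor, had 12 UMIs in 11 cells, against 1081 UMIs of Gata2. Itga2, P2ry12, Tubb1 and Myl9 had no row, nor did Cavin2 under that name, although its synonym Sdpr was seen in 42.3% of cells. Integrin activation genes were frequent: Tln1 (talin) was in 76.7%, Fermt3 (kindlin-3) in 51.6% and Plcg2 in 51.6% of cells. Of the vesicle genes, Vamp8 was in 53.2% and Nbeal2, which is needed for α-granules, in 32.3%. Of the arachidonate enzymes, Tbxas1, the thromboxane synthase, was in 51.9% and Ptgs1 in 34.4%.

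The genes with the highest mean correlations with Vwf and Itgb3 across cells were not among the genes listed here for this lineage. Over 5707 genes seen in at least 10% of cells, within-library Pearson correlations at 1000 UMIs were averaged. A library that gave no value counted as 0. The mean with Vwf was highest for Dcp2 (0.222), Exoc8 (0.215) and Caml (0.211), which had values in 7, 6 and 7 of 8 libraries. By library, Dcp2 ran from -0.0782 to 0.593. With Itgb3 the mean was highest for Actr1a (0.234), Rock1 (0.224, from -0.123 to 0.783 by library) and Slc38a10 (0.203). Such values over 8 libraries are low for sparse counts and are given only as a description. They are the extremes of 5707 values from 1 random draw of UMIs per cell, so they cannot settle which genes are nearest. Of the 10 genes, Itga2b ranked highest with Vwf (rank 744) and Vwf highest with Itgb3 (rank 1149). Vwf and Itgb3 had a mean correlation of 0.0403 with each other.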

How the data were processed

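Processed tables of 8 mCEL-Seq2 libraries were used, 4 of Dlk1+ and 4 of Dlk1- LT-HSC. Each table, as deposited, lists an estimated count of transcripts for every gene and barcode, unscaled for depth. Inverting the usual correction for UMI collisions over 4096 possible UMIs gave whole UMIs within 3.64e-12 (tolerance 1e-06). Since the estimates could not be checked automatically as raw counts, count models were not used and limma took their place. Alignment used BWA 0.6.2-r126 and mm10, per the submitters' processing notes. Counting and read filters are not given in the sources used here.

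The 10 barcodes left out (17, 20 to 24 and 29 to 32) held UMIs in libraries of both sorts. Leaving them in was an alternative. The 10 genes held 1 of 25978 UMIs on those barcodes in the Dlk1- libraries. The genes and lists were chosen with earlier results of these data known.

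Transcripts were summed over kept cells per library and fitted with limma-voom (limma 3.58.1, R 4.3.3), with trimmed mean of M-values scaling and sort as the only term. A gene was tested when 4 or more libraries reached the CPM that 10 counts make in a library of median size, with a total of at least 15. CPM is relative to the library total. That total, like the 1000 UMIs of a cell, includes Gm10800 and Gm26870. These 2 rows made up from 9.21% (Dlk1+ replicate 4) to 27.9% (Dlk1+ replicate 1) of a library's UMIs. Without them 0 of the 6 genes were called, and the differences in share were -8.77 points for Cd9, -2.69 for Itga2b and 4.98 for Vwf. Shares at 1000 UMIs are exact hypergeometric expectations and were compared by exact permutation. All 10 genes are described. Of the lineage lists, the text names genes past the test and, in each group, at most the 3 with the highest mean CPM, plus sparse or unlisted genes chosen after their values were seen. Some genes that this rule names are not reported here. A gene was called widely seen when at least 10% of cells had a UMI in every library. The scripts were tested on simulated data. No doublet caller was run. Sequences and positions are from RefSeq (GRCm38.p6), in which all 10 symbols were found.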

Additional observations from a re-analysis of the deposited data

Results flagged for a closer look

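Of 38 sets of 4 libraries looked at (a gene, a sort, and CPM or share at 1000 UMIs), 3 held a library far from the rest, and chance gives about 1 in 20. The Pf4 level of Dlk1+ replicate 3 was 102.4 CPM where the others lay between 10.9 and 19.5, and it rested on 4 UMIs in 3 cells of the shallowest library. Gp1bb in Dlk1- replicate 1 was at 30.9 CPM where the others lay between 8.38 and 8.68. Its share of cells at 1000 UMIs there was 2.43% where the others lay between 0.371% and 0.602%.

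Barcodes of the range that a library did not use held 10 UMIs of the 10 genes among 23663 UMIs. This is 423 CPM, against 649 CPM on kept cells.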

How the results depend on the processing

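None of the 6 genes was called under the alternatives that tested it: 21 for Vwf and Cd9 and 20 for the other 4, which were too sparse to be tested with cells thinned to 1000 UMIs. The calls over all genes ran from 0 (limma-trend on log2 of CPM with a pseudocount of 1) to 20 (without Dlk1+ replicate 4). The number of genes whose shares did not overlap was 0. It was 1 with all UMIs (Gp9, difference -7.58 points, where 5.05% of all genes did not overlap) and 2 with the replicate block (Itga2b and Cd9, with the same sign in each pair, as had 17.9% of all genes). It was between 0 and 2 when single libraries were left out: 2 without Dlk1- replicate 2 (Itga2b, Cd9), 1 without Dlk1+ replicate 2 (Gp9, -1.37) and 1 without Dlk1+ replicate 3 (Plek, 3.54). Those settings left 6.69%, 6.49% and 6.27% of all genes without overlap. It was 0 under the other 11 alternatives. Leaving out the 4 Pf4-rich cells or the deepest cell was chosen after seeing the data and moved neither number.

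Signs turned for the log2 fold change of Vwf (-0.10 with cells thinned to 1000 UMIs) and Itgb3 (-0.07 without Dlk1- replicate 3, and between -0.0719 and 0.358 over all single libraries left out). For shares they turned with all UMIs (Vwf -9.56, Itgb3 -3.14), with cells of at least 2000 transcripts (Itga2b 1.32, Gp9 1.09, Itgb3 -0.0527) and at 2000 UMIs per cell (Gp9 2.20). The cause was not tested. The median of all genes moved to -0.23 with limma-trend and to 0.24 without the gene filter. Cd9 ran from -2.32 to -0.41 and Itga2b from -1.12 to -0.55 over their alternatives, with limma adjusted p between 0.376 and 0.959.

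The labels do not say that equal replicate numbers pair libraries, and these data do not settle it. Same-numbered libraries correlated at 0.0298 to 0.0410 in their deviations, and each correlated best with its own number. Libraries of unequal number correlated at -0.0401 to 0.0112. With the replicate block, 1 gene of all was called in place of 2 and 0 of the 6. The planned count models were not run because the tables' values could not be checked as raw counts. Dlk1+ replicate 3, with 38488 UMIs, limits every value it enters.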
